A study of Mus musculus with 9 samples.

Results

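Cd274 (PD-L1), Pdcd1lg2 (PD-L2), Cd276 (B7-H3), Vtcn1 (B7-H4), Cd80, Cd86, Cd47, Cd200, Lgals9 (galectin-9) and Lgals3 (galectin-3) are genes of proteins by which a tumour cell can restrain immune cells. These 10 genes were taken by symbol, and each symbol matched 1 of the 54838 gene identifiers of the deposited count table. Of the 10, 5 had enough counts to be tested among 13153 genes, and all of those were detected in every library.

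RNA-seq was collected from PDA530 Met, a pancreatic ductal adenocarcinoma cell line that a male KPC mouse yielded as a liver metastasis. KPC is a genetic mouse model of this cancer, here on a Mixed 129/SvJae/C57Bl/6 background. The knockout group was Zdhhc20 KO clone E4, a line grown from 1 single cell after CRISPR/Cas9 editing of Zdhhc20, which encodes an enzyme that attaches palmitate to proteins. The control group was clone C5 (WTCtrl), also grown from 1 single cell, nucleofected with the same guide RNAs, not edited and still expressing Zdhhc20. The uncloned parental line (WT) formed the remaining group. Each group had 3 biological replicates of untreated cultured cells, and the libraries of a clone are replicates of that clone, not of independent clones. The labels do not say whether the replicates were separate cultures, so p-values measure the spread between these libraries, which may be partly technical.

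Immune checkpoint ligands act through receptors on lymphocytes and myeloid cells. Proteins of the B7 family either costimulate T cells, as CD80 and CD86 do through CD28, or restrain them, as PD-L1 and PD-L2 do through PD-1. CD47 binds SIRPA on macrophages and blocks engulfment, CD200 binds an inhibitory receptor on myeloid cells, and galectins are secreted lectins that cross-link sugar chains on surface proteins, galectin-9 among them as a ligand of TIM-3. Interferon-gamma is the best known inducer of PD-L1 in tumour cells, and these cultures were untreated.

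Total counts per library ranged from 16525869 to 23192701. Levels are given as CPM, counts set relative to library depth with TMM factors, and differences as log2 ratios of 2 groups with their standard error (SE). Zdhhc20 stood at 37.45, 33.88 and 42.51 CPM in the knockout libraries, 123, 85.78 and 120.2 CPM in the control libraries and 75.34, 81.16 and 90.67 CPM in the parental libraries. All 3 knockout libraries were below the 6 others, with a log2 ratio of -1.53 ± 0.15 SE (adjusted p = 6.97e-05) when compared with the control clone and -1.12 ± 0.15 SE (adjusted p = 0.000585) when compared with parental cells. Libraries of the control clone varied most, with a median SD of 0.203 in log2 CPM over 10021 genes, against 0.0753 for knockout and 0.0839 for parental libraries. Control replicates 2 and 3 differed most, with a chi-square per gene of 83.8, against 35.4 and 44.9 for the other pairs of control libraries. The summed level of 15 leukocyte markers was 1.28 to 1.46 CPM in knockout, 2.1 to 3.10 CPM in control and 1.77 to 2.53 CPM in parental libraries, and 7 of the 15 had no count in any library, Cd3e, Cd8a and Adgre1 among them. Markers of fibroblasts summed to 0.818 to 1.67 CPM, 1.31 to 2.89 CPM and 3.12 to 3.998 CPM in the same order, those of hepatocytes to at most 0.175 CPM in knockout, 0.525 CPM in control and 3.001 CPM in parental libraries, and those of endothelial cells to at most 0.525 CPM in any library. The 8 markers of ductal carcinoma cells summed to 4343 to 4474 CPM in knockout, 7038 to 9406 CPM in control and 6734 to 8206 CPM in parental libraries. Against the control clone 5 of these 8 were called lower in the knockout clone and 1 higher, where 24.2% and 18.7% of all tested genes were. The counts were the same against the parental cells, where 18.3% of all tested genes were called lower and 13.1% higher. Krt19, a keratin of duct cells, was lower by the most of these 5, with log2 ratios of -3.12 (adjusted p = 8.76e-05) against the control clone and -2.73 (adjusted p = 0.000278) against the parental cells. The higher gene was Epcam, an epithelial adhesion molecule that was nearly absent, with mean CPM of 0.610 (knockout), 0.150 (control) and 0.198 (parental) and log2 ratios of 1.96 (adjusted p = 0.00393) and 1.58 (adjusted p = 0.0139). The second of these Epcam calls was lost with no filter (adjusted p = 0.0821), by DESeq2 (adjusted p = 0.0644), and on leaving out parental replicate 2 (adjusted p = 0.066) or knockout replicate 1 (adjusted p = 0.0553). The lower summed level of these carcinoma markers accompanies every decrease described here for the knockout clone, and its part in those results was not tested.

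The upstream sequences of 4 of the genes show how differently their starts are built, and they are printed because they span an abundant, a scarce and a nearly absent ligand and the 1 window of a detected ligand with an interferon-type motif. RefSeq windows of 250 bases before the start (GRCm38.p6) were at hand for 9 of the 10 genes, all but Cd86. In the first 3 sequences capitals mark CpG dinucleotides, and in the last they mark the motif; only the longest stretch of each window that lies outside every annotated exon is shown.
Cd47, chr16:49855404-49855632, plus strand: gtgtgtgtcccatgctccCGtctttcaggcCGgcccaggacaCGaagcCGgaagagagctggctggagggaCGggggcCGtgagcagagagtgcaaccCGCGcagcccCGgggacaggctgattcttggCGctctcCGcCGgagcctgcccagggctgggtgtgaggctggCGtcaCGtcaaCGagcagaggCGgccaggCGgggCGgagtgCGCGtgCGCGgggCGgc
Cd274, chr19:29367391-29367437, plus strand: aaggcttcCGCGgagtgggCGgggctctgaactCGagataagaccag
Pdcd1lg2, chr19:29410669-29410918, plus strand: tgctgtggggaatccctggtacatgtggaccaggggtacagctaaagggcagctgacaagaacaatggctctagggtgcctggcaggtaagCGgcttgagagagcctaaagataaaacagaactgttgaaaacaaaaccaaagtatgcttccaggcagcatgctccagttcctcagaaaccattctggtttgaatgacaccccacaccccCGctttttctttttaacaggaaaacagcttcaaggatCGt
Lgals9, chr11:78984947-78985174, minus strand: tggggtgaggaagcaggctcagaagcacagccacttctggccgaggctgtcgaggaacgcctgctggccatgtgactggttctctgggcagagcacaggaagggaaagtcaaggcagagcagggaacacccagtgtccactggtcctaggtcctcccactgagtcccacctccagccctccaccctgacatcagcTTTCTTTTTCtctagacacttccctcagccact
The whole window held 30 CpG in Cd47 and 29 in Cd276, counts reached by 5.94% and 6.78% of all 32851 windows. Lgals3 had 13 and Cd274 had 11, whereas Lgals9, Cd80 and Pdcd1lg2 had 3 each, Vtcn1 5 and Cd200 6, against a median of 6. A low CpG count was thus found both in the abundant Lgals9 and in ligands that were not or hardly detected. A second RefSeq window of Cd47 held 31 CpG, a count reached by 5.19% of windows. These counts are not all from sequence upstream of a gene. Annotated exons covered all 250 bases of the Cd276 window and 185 bases of the Cd274 window. The windows of Cd47, Cd80, Lgals3 and Cd276 lie within the annotated spans of their genes. Both strands were searched for a gamma-activated site (TTCNNNGAA), the core of an interferon-stimulated response element (GAAA, any 2 bases, GAAA), AP-1 (TGANTCA), an E-box (CACGTG) and a TATA box (TATAAA), which 7.02%, 2.98%, 6.75%, 6.02% and 12.4% of all windows held. There were 2 matches among the 9 genes. Lgals9 held the response element core on the other strand (TTTCTTTTTC, 55 to 46 bases before the start), and Cd80 held an AP-1 motif (TGATTCA, 42 to 36 bases before the start). A match is a description of letters, and the binding of any factor was not measured.

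Per kilobase of exon, galectin genes were the most abundant of the 10 and PD-L1 the least abundant of those detected. Over the 9 libraries Lgals3 had a mean of 212.6 CPM per kilobase, a level above that of 98.4% of tested genes. Lgals9 followed at 63.45, Cd47 at 18.65, Cd276 at 10.91 and Cd274 at 1.004 CPM per kilobase, where the median tested gene stood at 5.9. This order held in 9 of 9 libraries for each pair of neighbours. The closest pair was Cd47 and Cd276, whose level ratio ranged from 1.58 to 2.07, and the widest was Cd276 and Cd274, from 6.08 to 23.7. Lgals3 and Lgals9 together made up most of the summed level of the 10 genes, with Lgals3 alone at 64.2% to 71.4% of it.

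**Figure D1:**
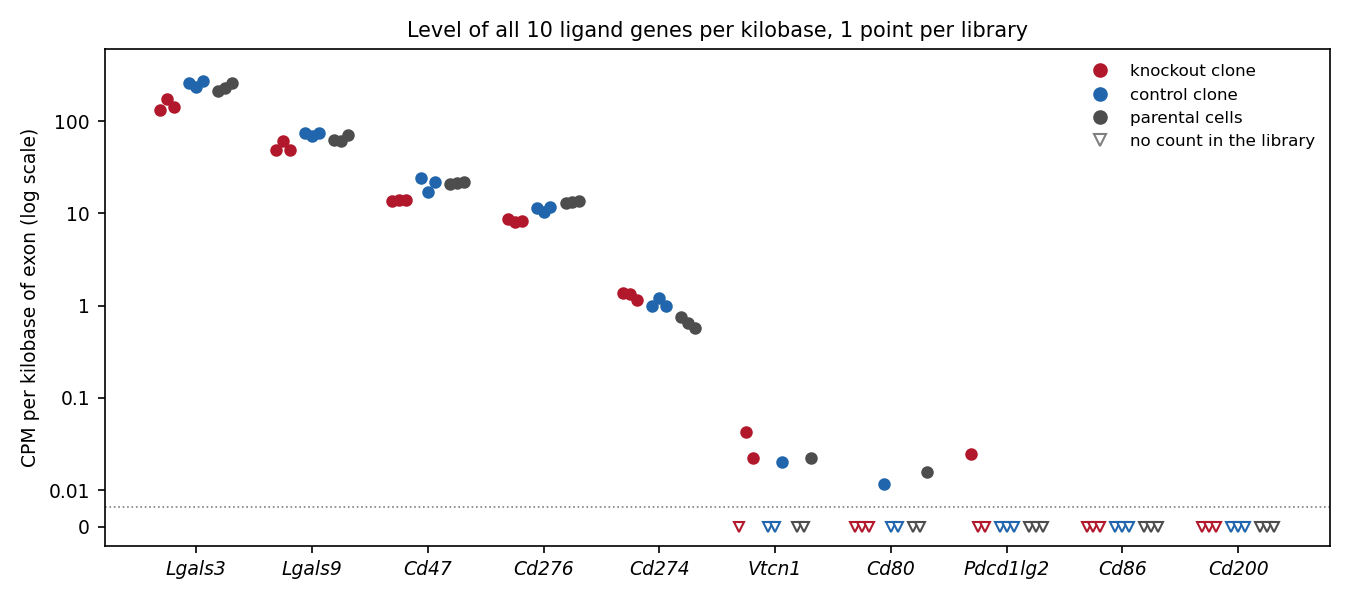
Level of the 10 ligand genes in CPM per kilobase of exon on a log axis, 1 point per library, with open triangles on the lowest line for libraries without a count. Lgals3 lies highest, Cd274 lies near 1, and the last 5 genes have at most a few counts.

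Both costimulatory ligands, the second PD-1 ligand, B7-H4 and CD200 were not detected or nearly so. Cd86 and Cd200 had 0 counts in all 9 libraries, which at 169276423 total counts allows up to 3 counts, or 0.0177 CPM. Pdcd1lg2 had 1 count, in knockout replicate 1. Cd80 had 2 counts, 1 in control replicate 1 and 1 in parental replicate 3. Vtcn1 had 5 counts, with 0, 2 and 1 in the knockout libraries and 1 each in control replicate 3 and parental replicate 3. These 8 counts are too few for any comparison between groups. That limit allows for counting error alone, because amplified reads are not separate molecules. Of the receptors of these ligands, Pdcd1 (PD-1), Ctla4 and Sirpa also had no count.

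The knockout clone had lower mRNA of 4 ligands than the control clone, Cd276, Cd47, Lgals9 and Lgals3, and 0 ligands were called higher by edgeR (0 at an unadjusted p under 0.05, and 0 by DESeq2 or limma voom). Against the parental cells Cd276, Cd47 and Lgals3 were again lower and Cd274 was higher. None of the differences passed a log2 ratio of 1 either way, as 14.0%, 10.6% and 6.47% of tested genes did among the calls of the 3 comparisons (knockout with control, knockout with parental, control with parental). The calls have to be read against a wide background, since 42.9% of all tested genes were called between the knockout clone and the control clone (24.2% lower, 18.7% higher) and 31.4% between the knockout clone and the parental cells (18.3% lower, 13.1% higher). The median log2 ratio of the 5 tested ligands was -0.45 against the control clone and -0.60 against the parental cells, beside -0.02 and -0.01 for all tested genes. Both comparisons share the knockout libraries. The 4 calls against the control clone held with each library left out in turn, and without control replicate 2 the log2 ratios were -0.46 for Cd276, -0.71 for Cd47, -0.48 for Lgals9 and -0.84 for Lgals3. In bulk RNA, fewer cells with a transcript and less of it per cell cannot be told apart.

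**Figure D2:**
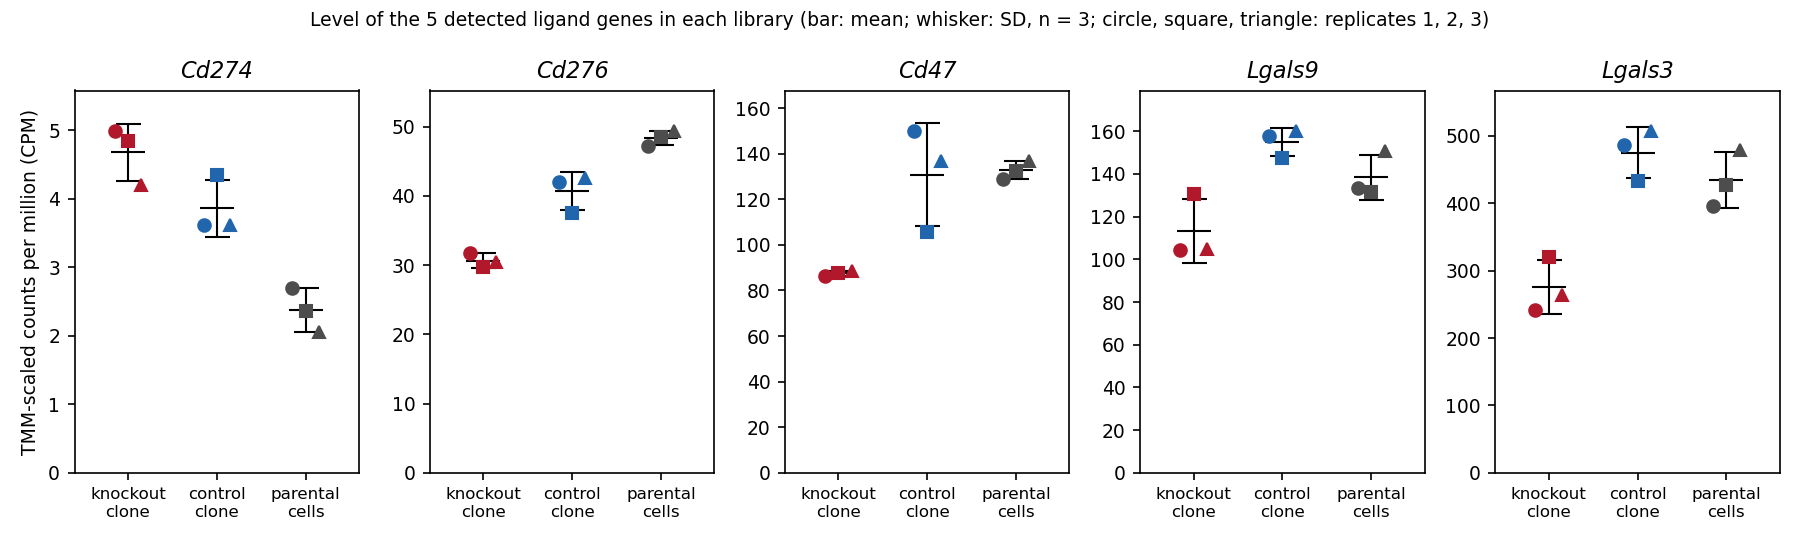
TMM-scaled CPM of the 5 detected ligand genes, 1 marker per library, with the mean and SD of each group (n = 3) and an axis from 0 in every panel. Knockout libraries lie below the 6 others in Cd276, Cd47, Lgals9 and Lgals3, and parental libraries lie below the 6 others in Cd274.

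Cd274 encodes PD-L1, the ligand of PD-1 that is targeted in cancer immunotherapy (ENSMUSG00000016496, chr19:29367455-29388095, plus strand). Its level was 4.981, 4.841 and 4.205 CPM in the knockout libraries, 3.623, 4.343 and 3.622 CPM in the control libraries and 2.698, 2.357 and 2.059 CPM in the parental libraries. The parental libraries were the 3 lowest, and the 2 clones overlapped. These values rest on 261, 225 and 131 counts per group. Cd274 was 1.97-fold higher in the knockout clone than in the parental cells (log2 ratio 0.97 ± 0.18 SE, adjusted p = 0.00318), a difference that 3.25% of tested genes reached or passed. It was also 1.62-fold higher in the control clone than in parental libraries (log2 ratio 0.70 ± 0.18 SE, adjusted p = 0.0236). Leaving out parental replicate 2 or replicate 3 ended that call (adjusted p = 0.0809 and 0.0868). No filter and a fit of only the groups compared ended it as well. Between the clones the log2 ratio was 0.28 ± 0.17 SE (adjusted p = 0.217), and an interval of 2 SE ran from -0.07 to 0.62. Cd274 was thus called lower in the parental cells than in both clones, as 2.14% of tested genes were. Whether the clones differ from each other is not settled by that interval.

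Cd276 encodes B7-H3, a B7 protein often found on carcinoma cells (ENSMUSG00000035914, chr9:58524298-58555437, minus strand). The knockout libraries had 31.79, 29.71 and 30.43 CPM, the control libraries 42.08, 37.54 and 42.57 CPM and the parental libraries 47.21, 48.56 and 49.31 CPM. The 3 groups formed 3 steps without overlap, lowest in the knockout clone. The log2 ratio was -0.41 ± 0.08 SE (adjusted p = 0.00259) when compared with the control clone and -0.66 ± 0.08 SE (adjusted p = 0.000338) when compared with parental cells. The step from parental to control was smaller, at -0.25 ± 0.08 SE (adjusted p = 0.0488), and its call was lost on leaving out any 1 library other than control replicate 3, with adjusted p from 0.0663 to 0.13. The group means of Cd274 and Cd276 stood in opposite orders, although the clones overlapped in Cd274. The ratio of their levels per kilobase separated the groups, as Cd276 alone did. There was 6.32, 6.08 and 7.16 times as much Cd276 as Cd274 in the knockout libraries, 11.5, 8.56 and 11.6 times in the control libraries and 17.3, 20.4 and 23.7 times in the parental libraries.

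Cd47 encodes the surface protein that macrophages read as a signal not to engulf a cell (ENSMUSG00000055447, chr16:49800533-49915010, plus strand). Its level was 86.39, 87.8 and 88.47 CPM in the knockout libraries, 149.8, 105.7 and 136.9 CPM in the control libraries and 128.9, 132.5 and 136.9 CPM in the parental libraries. The knockout libraries were the 3 lowest and nearly equal, while control replicate 2 was the lowest of the other 6. The log2 ratio was -0.58 ± 0.12 SE (adjusted p = 0.00314) when compared with the control clone and -0.60 ± 0.12 SE (adjusted p = 0.00388) when compared with parental cells. Control and parental cells differed by -0.02 ± 0.11 SE (adjusted p = 0.915).

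Lgals9 encodes galectin-9, a lectin with a pair of sugar-binding domains (ENSMUSG00000001123, chr11:78962974-78984946, minus strand). The knockout libraries had 104.4, 130.5 and 104.9 CPM, the control libraries 157.7, 147.5 and 159.9 CPM and the parental libraries 133.3, 131.4 and 150.6 CPM. Knockout replicate 2 came within 1 CPM of parental replicate 2, so that the groups only just failed to overlap. The difference from the control clone was called (log2 ratio -0.45 ± 0.10 SE, adjusted p = 0.00614) and the difference from the parental cells was not (-0.29 ± 0.10 SE, adjusted p = 0.0565). The latter passed the threshold without knockout replicate 2 (adjusted p = 0.0183), control replicate 2 (adjusted p = 0.037) or control replicate 3 (adjusted p = 0.0401), and also by DESeq2 (adjusted p = 0.035) and when the control clone was kept out of the fit (adjusted p = 0.0226). The difference between control and parental cells was 0.16 ± 0.10 SE (adjusted p = 0.282).

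Lgals3 encodes galectin-3, the galectin with a tail that lets it form oligomers (ENSMUSG00000050335, chr14:47367751-47386160, plus strand). Its level was 242.1, 320.4 and 264.2 CPM in the knockout libraries, 485.9, 432.7 and 506.6 CPM in the control libraries and 396.6, 427.8 and 478.7 CPM in the parental libraries. All 3 knockout libraries were below the other 6. The difference had the greatest size among the 5 ligands against the control clone, with a log2 ratio of -0.79 ± 0.12 SE (adjusted p = 0.000725), and was -0.66 ± 0.12 SE (adjusted p = 0.00289) against the parental cells. Control and parental cells differed by 0.13 ± 0.12 SE (adjusted p = 0.47). The level per kilobase of Lgals3 was 2.8 ± 0.12 times that of Lgals9 in the knockout clone, 3.52 ± 0.14 times in the control clone and 3.61 ± 0.17 times in the parental cells (SD, n = 3).

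Moderate falls of this kind were common in the knockout clone. Its 3 libraries all lay outside the 6 others in 4 of the 5 ligands, as in 34.2% of tested genes, and the parental libraries did so in 2 of the 5 (Cd274 and Cd276), as in 15.2%. A log2 ratio as low as that of the gene in both knockout comparisons was found in 10.5% of tested genes for Lgals3, 12.4% for Cd276, 12.4% for Cd47 and 18.2% for Lgals9. Being called lower against both other groups, as Cd276, Cd47 and Lgals3 were, applied to 13.4% of tested genes. Between control and parental cells 2 of the 5 ligands were called, Cd274 higher and Cd276 lower in the control clone, where 21.4% of tested genes were (10.4% higher, 11.0% lower), with 51.3% of the calls lower in the control clone, or 61.2% when libraries were scaled to total counts.

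The median log2 ratio of chromosomes 9 and 16 was below 0 in both knockout comparisons, and Cd276 lay close to the median of its chromosome, while Lgals3 and its chromosome lay on opposite sides of 0. On chromosome 9, which carries Cd276, the median log2 ratio of 748 tested genes was -0.53 in both knockout comparisons, and Cd276 differed from that median by 0.12 against the control clone and -0.12 against the parental cells. On chromosome 16, which carries Cd47, the medians of 403 genes were -0.35 and -0.29, and Cd47 lay 0.23 and 0.31 below them. Lgals9 lay on chromosome 11, where the medians of 1030 genes were -0.05 and 0.00. Lgals3 shares chromosome 14 with Zdhhc20, and there 437 genes had medians of 0.19 and 0.21, so that Lgals3 lay 0.98 and 0.87 below its chromosome, among the lowest 8.92% and 8.24% of those genes. Cd274 lay 0.95 above the median of 462 chromosome 19 genes in the knockout clone and 0.84 above it in the control clone, each against the parental cells. The next tested gene to the left of Cd274, Plgrkt, was not called in any comparison, and the next to the right, Ric1, rose in the knockout clone against both the control clone (log2 ratio 0.61, adjusted p = 0.000645) and the parental cells (0.64, adjusted p = 0.000831), with 0.03 (adjusted p = 0.872) between control and parental cells. DNA copy number was not measured here, and the part of the chromosome medians in these results was not tested. Genes of the lists below were not set beside the medians of their chromosomes.

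**Figure D3:**
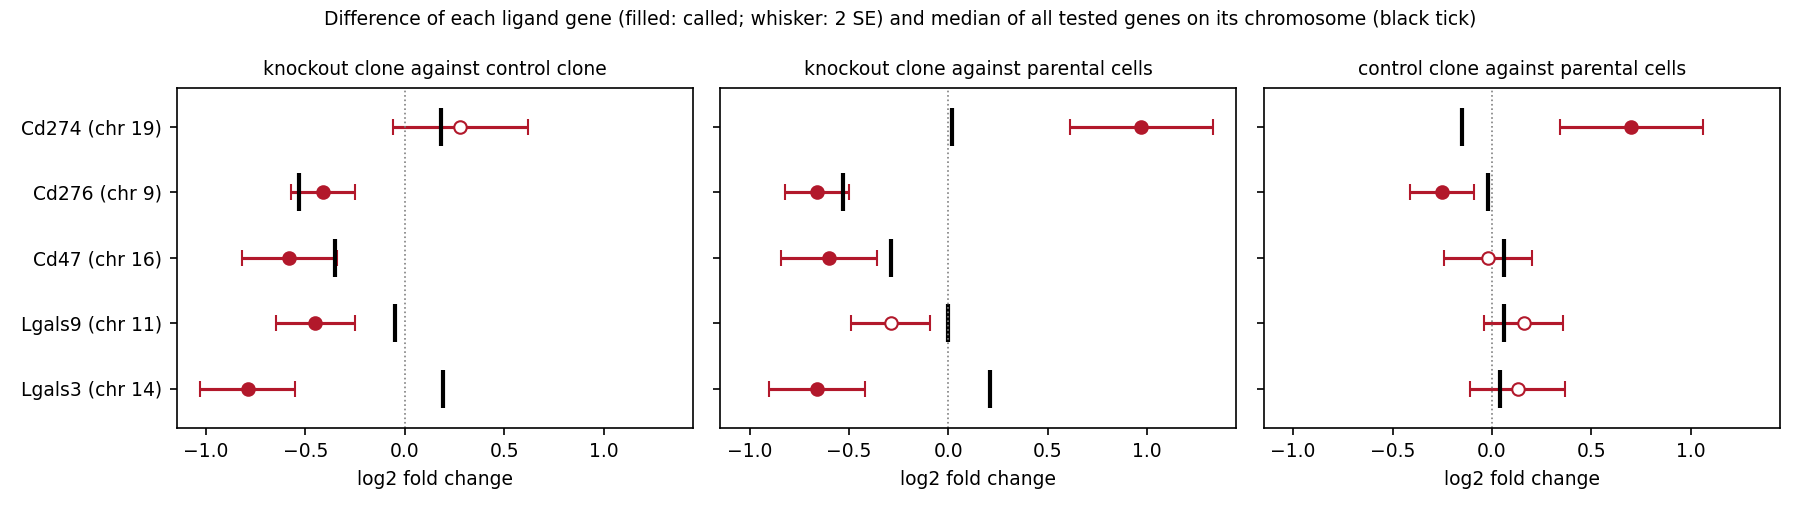
Log2 ratio of the 5 detected ligand genes in 3 comparisons, with whiskers of 2 SE, filled points for called differences, and a black tick at the median of all tested genes on the same chromosome. Cd276 lies close to its tick in both knockout panels, and Lgals3 lies 0.98 and 0.87 below its own.

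In the interferon-gamma pathway, the best known input to PD-L1, the knockout clone had less Ifngr1 and Ifngr2 (receptor genes) and Irf2 (a factor) than both other groups. The kinase genes Jak1 and Jak2 were called higher than in the control clone but not than in the parental cells, and Irf1 did not pass the test. Where a pair of log2 ratios is given for a gene from here on, the control clone comes before the parental cells. All 13 genes were tested, and against the control clone 2 of them were higher and 5 lower (median log2 ratio -0.35), with 1 higher and 3 lower against the parental cells (median -0.24). The count of 2 higher fell to 0 without knockout replicate 1 or replicate 3 and to 1 without control replicate 1, parental replicate 1 or 2, or knockout replicate 2. Against the parental cells, the 1 higher call was lost without parental replicate 2 or 3 or knockout replicate 2 or 3 and became 2 without control replicate 3, and the 3 lower calls became 5 without control replicate 2 or 3. Ifngr1, the ligand-binding chain of the receptor, had 73.54, 69.33 and 80.36 CPM in the knockout libraries, 128.3, 102.6 and 122.4 CPM in the control libraries and 136.9, 149.3 and 182 CPM in the parental libraries. The knockout libraries were the 3 lowest, with log2 ratios of -0.66 (adjusted p = 0.00245) and -1.07 (adjusted p = 0.000317). Ifngr2, the signalling chain, stood at -0.70 (adjusted p = 0.0191) and -0.85 (adjusted p = 0.011), calls lost without control replicate 1, knockout replicate 1 or knockout replicate 3 in the first comparison and without parental replicate 3 in the second. The genes called higher were the receptor-bound kinases Jak1 (0.31, adjusted p = 0.02) and Jak2 (0.58, adjusted p = 0.0349) against the control clone, and the phosphatase gene Ptpn2 (0.48, adjusted p = 0.0184) against the parental cells. Jak2 libraries of the clones overlapped, and its call held in 10 of 17 alternatives. Losses included those without control replicate 2 (adjusted p = 0.0503) and without the parental cells in the fit (adjusted p = 0.0711). Against the parental cells Jak1 stood at -0.24 (adjusted p = 0.0695) and Jak2 at 0.36 (adjusted p = 0.179), neither called. The control clone was itself below the parental cells in Jak1 (-0.55, adjusted p = 0.00326). Irf2, a factor that competes with IRF1 at shared sites, was lower in the knockout clone at -0.51 (adjusted p = 0.00441) and -0.53 (adjusted p = 0.00568). Irf1, through which interferon-gamma acts on the PD-L1 gene, had log2 ratios of -0.14 (adjusted p = 0.437) and -0.02 (adjusted p = 0.92). Socs3, a feedback inhibitor of JAK kinases, had log2 ratios of -0.92 (adjusted p = 0.000415) and -0.37 (adjusted p = 0.05, not called), and the control clone was itself above the parental cells (0.55, adjusted p = 0.0132), a call lost without parental replicate 1 (adjusted p = 0.0566) or parental replicate 2 (adjusted p = 0.0626) and when the knockout clone was kept out of the fit (adjusted p = 0.0511). Further genes of the lists that are named here for their values, Ifngr1, Ifngr2, Jak1, Jak2, Ptpn2, Irf1, Irf2, Socs3, Stt3a, Cmtm4, Cmtm6, Hip1r, Btrc, Otub1, Lgals1, Lgalsl, Havcr2, Pvr, Nectin2, Fgl1, Cd24a, B2m, Thbs1, Rgmb, Ptprc and Cd68, were chosen after those values were seen, and so were the neighbours of Cd274.

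Among 12 genes for factors that stabilise, modify or help to degrade the PD-L1 protein, the knockout clone had 6 called lower and 2 higher against the control clone (median log2 ratio -0.29). Against the parental cells 5 were lower and 0 higher by edgeR (median -0.29), where 1 was higher at an unadjusted p under 0.05, 1 by DESeq2 and 0 by limma voom, and the lower count became 8 without control replicate 3, while 1 gene was higher without control replicate 2, control replicate 3 or knockout replicate 2. Stt3a, a subunit of the enzyme that N-glycosylates proteins, had 260.5, 264 and 261.2 CPM in the knockout libraries, 485.4, 498.7 and 423.5 CPM in the control libraries and 427.8, 425.3 and 428.6 CPM in the parental libraries. These groups were far apart, with log2 ratios of -0.84 (adjusted p = 4e-05) and -0.71 (adjusted p = 0.000172). Cmtm4, which like CMTM6 protects PD-L1 from degradation, was lower as well, at -0.71 (adjusted p = 0.000312) and -0.50 (adjusted p = 0.0031). Cmtm6 itself was not called, at -0.22 in both comparisons (adjusted p = 0.115 and 0.123). Genes of factors that act towards degradation stood on both sides. Hip1r, which sends PD-L1 to lysosomes, was lower against the control clone (-0.84, adjusted p = 0.00249), and Btrc, a ubiquitin ligase subunit, was higher (0.53, adjusted p = 0.00625). The other higher gene was Otub1, a deubiquitinase that protects PD-L1 (0.64, adjusted p = 0.00463). PD-L1 protein was not measured.

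Of other genes that bear on engulfment, B2m and Cd24a were higher in the knockout than in the control clone, where Cd47 was lower. The knockout clone had 2 of 5 such genes called higher and 0 lower against the control clone by edgeR (median log2 ratio 0.59), with 0 lower also at an unadjusted p under 0.05, by DESeq2 and by limma voom. Against the parental cells 2 were higher, B2m and Thbs1, a count that fell to 0 without parental replicate 2 or 3 and to 1 without knockout replicate 1 or 2 (median 0.22). B2m, the light chain of MHC class I, had mean CPM of 99.66 ± 3.67 (knockout), 64.14 ± 4.80 (control) and 80.32 ± 1.98 (parental; SD, n = 3), so that its knockout to control difference was 0.64 (adjusted p = 0.000215). Cd24a, the ligand of an inhibitory Siglec receptor in people, was 0.59 higher in the knockout than in the control clone (adjusted p = 0.0021) but -0.15 against the parental cells (adjusted p = 0.309). Thbs1 encodes thrombospondin-1, a matrix protein that binds CD47. Its level was 233.5, 226.3 and 229.2 CPM in the knockout libraries, 17.33, 168.6 and 22.1 CPM in the control libraries and 40.08, 27.17 and 18.77 CPM in the parental libraries. Every knockout library was above the rest, and control replicate 2 lay between the knockout clone and all other libraries. Thbs1 was called against the parental cells (log2 ratio 3.00, adjusted p = 0.0165), a call lost without parental replicate 2 (adjusted p = 0.0607) or parental replicate 3 (adjusted p = 0.07), and DESeq2 gave no adjusted p for it. Against the control clone it was not called (1.74, adjusted p = 0.0818). It passed the threshold without control replicate 2 (3.55, adjusted p = 8.01e-06), with no filter (adjusted p = 0.0111) and by limma voom (adjusted p = 0.0112).

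Other galectins did not follow a single direction. Of 9 genes for other galectins and galectin partners 7 were tested, and the knockout clone had 1 called higher and 4 lower in each comparison (median log2 ratio -1.01 and -0.48). Those lower were Lgals2, Lgals4, Lgalsl and Lgals3bp. Lgals3bp, a secreted glycoprotein bound by galectin-3, had 89.66, 82.57 and 80.24 CPM in the knockout libraries, 347.4, 203.3 and 418.9 CPM in the control libraries and 281.8, 287.7 and 359.1 CPM in the parental libraries. The knockout libraries lay far below, with log2 ratios of -1.94 ± 0.23 SE (adjusted p = 0.000192) and of -1.88 ± 0.23 SE (adjusted p = 0.000374). Lgals2, a small prototype galectin, was lower as well, at -2.05 ± 0.30 SE (adjusted p = 0.000636) and then -1.98 ± 0.30 SE (adjusted p = 0.00119). Lgals4, a galectin of epithelia, had mean CPM of 210.4 (knockout), 842.6 (control) and 412.8 (parental), with adjusted p = 0.000355 for knockout against control and 0.0186 for knockout against parental. The second of these calls was lost without parental replicate 3 (adjusted p = 0.0769), knockout replicate 1 (adjusted p = 0.0773) or knockout replicate 3 (adjusted p = 0.0727). Lgals4 was also 1.03 higher for control against parental cells (adjusted p = 0.0205), a call lost without control replicate 1 (adjusted p = 0.0616), parental replicate 1 (adjusted p = 0.0893) or parental replicate 2 (adjusted p = 0.08).

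Lgals1, a galectin that can trigger the death of T cells, was higher in the knockout than in the control clone, unlike Lgals3 and Lgals9. Its level was 1036, 1128 and 1015 CPM in the knockout libraries, 577.7, 606.4 and 633.7 CPM in the control libraries and 941.5, 904 and 860.3 CPM in the parental libraries. The control clone was lowest, and the knockout clone rose by 0.81 against it on the log2 scale (adjusted p = 4.72e-05). The difference of 0.23 from the parental cells (adjusted p = 0.0369) was lost when any 1 parental or knockout library was left out, and with it the count of 1 higher galectin. It was also lost with total counts (adjusted p = 0.0517) and no filter (adjusted p = 0.0817). Against the control clone that count became 3 without control replicate 3. Per kilobase, the level of Lgals1 was 7.98 ± 0.78 times that of Lgals3 in the knockout clone, 2.63 ± 0.22 times in the control clone and 4.31 ± 0.59 times in the parental cells (SD, n = 3).

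Of 21 other checkpoint and costimulatory ligands 8 were tested, and 5 had no count (Btnl2, Btn2a2, Tnfsf18, Cd70 and Cd40). Against the control clone 0 were called higher by edgeR (1 at an unadjusted p under 0.05, 0 by DESeq2 or limma voom, and 2 without control replicate 2) and 4 lower, namely Nt5e, Ceacam1, Nectin2 and Fgl1 (median log2 ratio -0.49). The call of Fgl1, a secreted ligand of LAG-3, was marginal (adjusted p = 0.0396). It was lost with no filter, by DESeq2, by limma voom and on leaving out any 1 library other than control replicate 2, with adjusted p from 0.0603 to 0.131. Against the parental cells Pvr was higher and Nt5e and Ceacam1 were lower (median -0.05). Nt5e (CD73), the enzyme that makes immunosuppressive adenosine outside the cell, had 5.713, 5.23 and 6.015 CPM in the knockout libraries, 117.3, 84.77 and 158.7 CPM in the control libraries and 82.56, 94 and 116.1 CPM in the parental libraries. The groups were separated by more than any of the ligands, with log2 ratios of -4.41 ± 0.25 SE (adjusted p = 3.89e-06) and then -4.11 ± 0.24 SE (adjusted p = 9.18e-06). Ceacam1, an adhesion molecule that binds TIM-3, was scarce, with 2 counts over the knockout libraries, 29 over the control libraries and 34 over the parental libraries. It was 13.7 times (95% counting interval 3.47 to 119) and 17.3 times (4.43 to 148) as abundant per total count in the control and parental libraries. Pvr (CD155), the ligand of TIGIT, was 0.95 higher in the knockout clone than in the parental cells (adjusted p = 0.00352). Nectin2 (CD112) was lower than in the control clone (-0.60, adjusted p = 0.00746) and stood at -0.02 against the parental cells (adjusted p = 0.93).

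**Figure D4:**
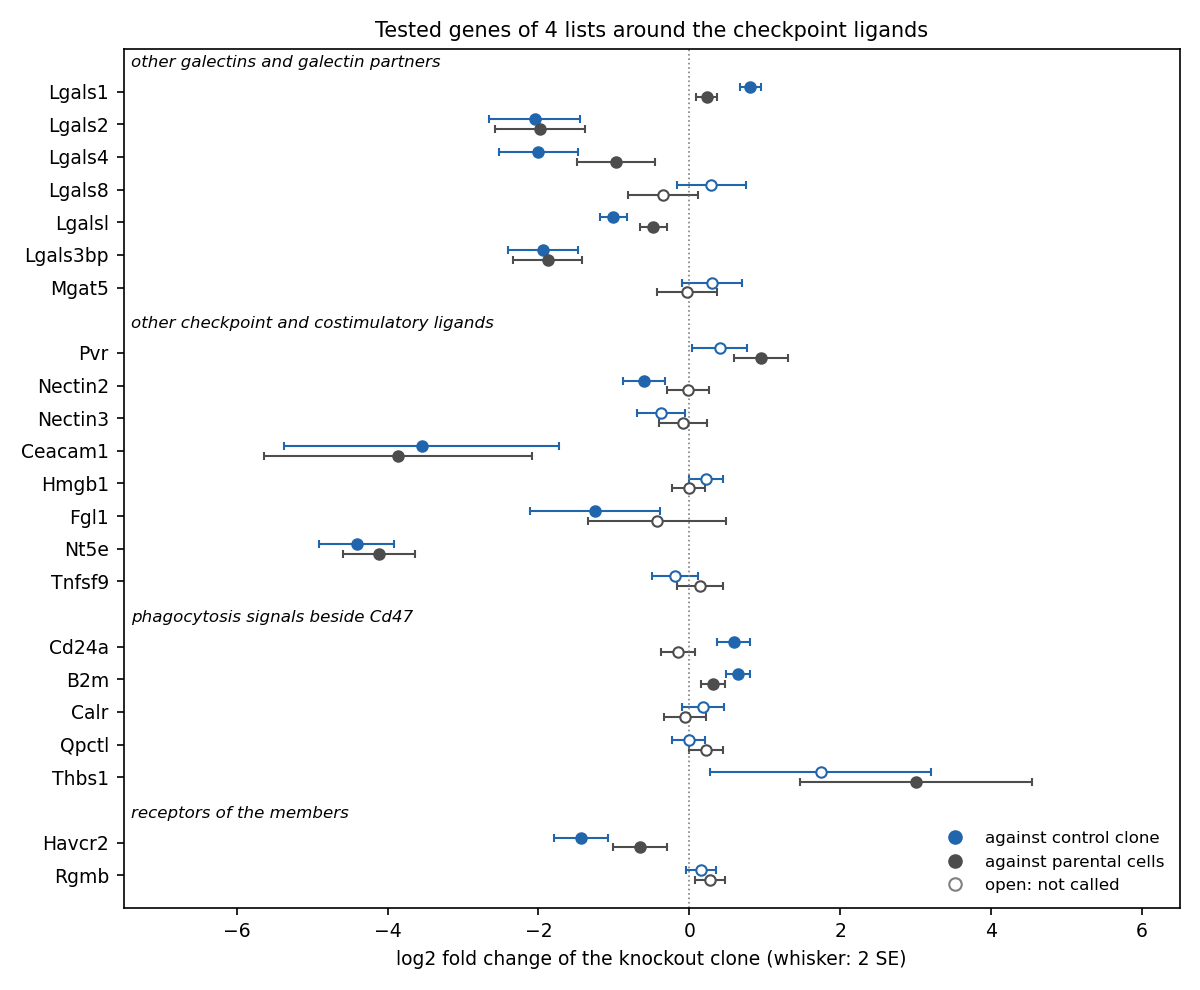
Log2 ratio of the knockout clone against the control clone and the parental cells for every tested gene of 4 lists around the ligands, with whiskers of 2 SE and open points for differences that were not called. Nt5e lies at -4.41 and -4.11, Lgals2 and Lgals3bp lie near -2, and Lgals1 and Pvr lie to the right of 0. The fitted value of Ceacam1 rests on 2 knockout counts.

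A receptor of galectin-9 was itself transcribed in these tumour cells. Havcr2 (TIM-3) had 12.94, 16.02 and 12.15 CPM in the knockout libraries, 35.22, 29.33 and 46.82 CPM in the control libraries and 19.32, 22.22 and 23.06 CPM in the parental libraries. The 3 groups did not overlap, with the control clone highest and the knockout clone lowest. The knockout clone differed from the control clone by -1.44 ± 0.18 SE (adjusted p = 0.00026). The difference of -0.65 from the parental cells (SE 0.18, adjusted p = 0.0219) was lost without parental replicate 2 (adjusted p = 0.0693), parental replicate 3 (adjusted p = 0.0809), knockout replicate 1 (adjusted p = 0.0828) or knockout replicate 3 (adjusted p = 0.0839). The control clone exceeded the parental cells by 0.79 ± 0.17 SE (adjusted p = 0.0127), a call lost without parental replicate 1 (adjusted p = 0.0644). Havcr2 and Rgmb, a surface protein that binds PD-L2, were the 2 tested of 7 receptor genes. Leukocyte genes were near 0 in the same libraries, with Ptprc (CD45) at 9 counts in all and Cd68, the only leukocyte marker tested, at 0.870, 1.85 and 1.501 CPM in knockout, control and parental cells.

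Across the 9 libraries the level of Cd276 in log2 CPM was most like that of Sparc (Pearson r = 0.997), Bicc1 (0.996) and Arl14 (0.993) among the 10021 genes averaging 5 CPM or more. That of Lgals3 was most like Il22ra1 (0.986), Wsb2 (0.985) and Myo15b (0.985). These libraries share 3 groups, and 415 genes had an r of at least 0.9 with Cd276 and 616 with Lgals3. Among the ligands the closest pairs were Lgals9 with Lgals3 (0.96), Cd276 with Cd47 (0.91) and Cd47 with Lgals3 (0.90), and the most opposed was Cd274 with Cd276 (-0.90).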

How the data were processed

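The values are RSEM estimated counts (expected counts) per gene that the authors deposited, 1 column per library for 9 libraries, and all were whole numbers. Per the submitters' processing notes, STAR 2.5.2, RSEM 1.3.0, DESeq2 1.10.1 and build GRCm38 were named. Neither the annotation release nor strandedness is given in the sources used here, so reads of overlapping antisense genes cannot be told apart. An exon of Cd276 overlaps Gm10657, which had 13 counts, and an exon of Cd274 overlaps AC119228.1, which was not analysed here. Per the labels, libraries were made from total RNA of untreated cells with the KAPA mRNA HyperPrep kit. One label text writes PDA50 Met for the line.

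Symbols, 1-based positions and exon lengths were taken from GENCODE M21 (GRCm38), which held 54809 of 54838 identifiers. Testing used edgeR 4.0.16 (glmQLFit, glmQLFTest, R 4.3.3) with TMM factors on the genes kept by filterByExpr (at least 10 counts, total at least 15). One model held all 9 libraries and only the group as a term. Called means an adjusted p below 0.05, adjusted by Benjamini-Hochberg over all 13153 tested genes, and this edgeR value is printed throughout unless another test is named; 12102 genes with a count and 29583 without were not tested. Dividing the absolute log2 ratio by the square root of F gave its SE. Levels per kilobase divide CPM by the union of annotated exons. Motif searches used the 250 bases before the start only. No library repeated another.

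The ligands, the 6 further lists and the alternatives were chosen with earlier results of these data known. The naming rule takes all 10 ligands, Zdhhc20, up to 4 genes per list that differ the same way from each remaining group by a log2 ratio of 1 or more, and the 3 genes most like each of the 2 ligands with the largest F. Alternatives were DESeq2 1.42.0 size factors, scaling to total counts, no filter, a filter at a mean of 5 CPM, testing by DESeq2 or by limma 3.58.1 voom, a replicate block, a model of the compared groups alone, omission of each library, an added threshold of 1 on the log2 ratio, and the longest transcript as the length.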

Additional observations from a re-analysis of the deposited data

How the results depend on the processing

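Lower Cd276, Cd47, Lgals9 and Lgals3 in the knockout than in the control clone, and lower Cd276, Cd47 and Lgals3 than in the parental cells, were called under all 17 alternatives that test a gene. Higher Cd274 against the parental cells was called in the 16 that tested it, since its mean was below 5 CPM. No called value changed sign; among values that were not called, Cd47 between control and parental cells ranged from -0.13 to 0.11. A threshold of 1 on the absolute log2 ratio left 1843, 1392 and 851 genes in the comparisons of knockout with control, knockout with parental and control with parental cells, and 0 ligands in each. Fits of only the groups compared called 6840 genes for knockout against parental cells, and 1525 genes and 0 ligands for control against parental cells. In that last comparison no filter and a mean of at least 5 CPM each called 0 ligands. With each library left out, the calls ranged from 2515 to 5693 genes and from 4 to 5 ligands for knockout against parental cells, the fewest without parental replicate 3 (2515) or knockout replicate 1 (2626). For control against parental cells they ranged from 1472 to 4102 genes and from 0 to 2 ligands, with 0 without parental replicate 2 or 3. The causes were not tested. With the longest transcript as the length, the level per kilobase was 22.3 for Cd47, 85.5 for Lgals9 and 278 for Lgals3.

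Same-numbered libraries correlated from -0.22 to 0.34 in their deviations from the group means over 9 pairs. The labels do not say whether a number marks a shared day or batch, and so few libraries cannot settle it. With the replicate number as a block, 5528, 3941 and 2492 genes and 4, 4 and 1 ligands were called, without Cd276 between control and parental cells (adjusted p = 0.0741). The block also brought in Thbs1 against the control clone (adjusted p = 0.0349) and lost Lgals1 against the parental cells (adjusted p = 0.0588) and Fgl1 against the control clone (adjusted p = 0.0635). Depth limits Cd274 and the 5 ligands that were not tested, and no statement about protein or DNA can be made from these counts.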
